A study of Mus musculus with 6 samples.

Results

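Dendritic cells take up antigen and show it to T cells, and the spleen holds plasmacytoid and conventional kinds. Plasmacytoid dendritic cells (pDC) sense viral nucleic acids through Toll-like receptors and release type I interferon, and their identity depends on the E protein encoded by Tcf4. Conventional dendritic cells (cDC) depend on the growth factor receptor encoded by Flt3, and the cDC1 kind takes up dead cells and primes CD8 T cells. The data described here are the counts of 10 genes that mark these cells, chosen by symbol from 23412 rows of a count table of sorted germinal centre B cells. All 10 had 1 row each. The genes of pDC are Siglech, Ccr9, Pacsin1, Tcf4 and Runx2, Flt3 belongs to both kinds, Zbtb46 marks cDC, and Batf3, Xcr1 and Clec9a mark cDC1.

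The libraries came from 2 groups of mice immunized intraperitoneally with sheep red blood cells, and splenic germinal centre B cells (B220+, GL7+, Fas+) were sorted on day 10. DAF-TM mice were Cg1-cre(+/-) and carried R26-DAF-TM(fl/fl), a cassette at the Rosa26 locus, and control mice were Cg1-cre(+/-) alone, so both groups carried the Cre allele. Cg1-cre drives Cre recombinase in B cells that activate the gamma 1 constant region, mostly those of the germinal centre. The age and strain of the mice, and whether a library came from 1 mouse or several, are not given in the labels. The p-values therefore refer to the spread between libraries, which edgeR estimates here mostly from many genes together.

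Each group had 3 labelled replicates, but the deposited columns of DAF-TM replicates 2 and 3 are copies of each other. They therefore differed by less than sampling noise and count as 1 sample here, which left 2 DAF-TM and 3 control libraries of 7257339 to 12783965 counts. The B cell identity of the sort was plain in the counts: Cd79a, a chain of the B cell receptor complex, averaged 1318 CPM (counts per library total, after TMM scaling) in DAF-TM libraries and 1308 in controls. Cd55, which encodes decay accelerating factor, stood at 713 and 726 CPM in DAF-TM libraries and at 23.5 to 34.4 in controls. The libraries also differed in sex-linked RNA, which bears on every comparison below. Xist, made from the silent X chromosome of females, stood at 297 and 720 CPM in DAF-TM libraries 1 and 2 and at 759, 2.63 and 2.87 in control libraries 1 to 3. DAF-TM library 1 also held RNA of the Y-linked gene Ddx3y (141 CPM), so it contained RNA of both sexes.

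The start regions of 3 pDC genes are shown because Tcf4 encodes an E protein (also named E2-2), a class of factor that binds the E-box CANNTG, and because Siglech passed the test below while Ccr9 and Pacsin1 did not. The sequences are RefSeq promoters (GRCm38.p6), 250 bases before to 50 bases after the RefSeq start, 5′ to 3′ on the strand of the gene, with each E-box in capitals. Siglech lies at chr7:55767934-55768233 on the plus strand, Ccr9 at chr9:123766961-123767260 on the plus strand and Pacsin1 at chr17:27684989-27685288 on the plus strand. The Siglech window spans the GENCODE start of the gene (55768178). GENCODE begins Ccr9 at 123678439 and Pacsin1 at 27655509, upstream of the windows shown. Other starts of the members were not scanned, so the E-box counts hold only for the RefSeq starts used.
Siglech: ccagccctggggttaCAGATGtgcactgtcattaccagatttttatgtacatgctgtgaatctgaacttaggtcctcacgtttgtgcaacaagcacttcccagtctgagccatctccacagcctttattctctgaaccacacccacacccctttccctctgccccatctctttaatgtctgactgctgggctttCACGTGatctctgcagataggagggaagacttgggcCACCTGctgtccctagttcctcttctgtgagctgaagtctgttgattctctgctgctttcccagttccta
Ccr9: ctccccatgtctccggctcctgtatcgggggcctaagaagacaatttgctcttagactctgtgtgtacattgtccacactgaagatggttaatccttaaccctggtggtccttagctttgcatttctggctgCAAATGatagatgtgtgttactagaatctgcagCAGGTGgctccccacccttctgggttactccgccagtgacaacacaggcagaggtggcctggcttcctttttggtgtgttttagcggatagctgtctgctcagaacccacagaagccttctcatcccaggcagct
Pacsin1: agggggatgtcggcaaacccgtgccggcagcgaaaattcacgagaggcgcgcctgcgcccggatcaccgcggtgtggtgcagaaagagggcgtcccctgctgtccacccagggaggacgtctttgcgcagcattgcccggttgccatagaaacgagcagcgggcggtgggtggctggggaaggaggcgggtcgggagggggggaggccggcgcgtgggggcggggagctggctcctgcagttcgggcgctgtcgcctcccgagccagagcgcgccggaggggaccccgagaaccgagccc
The Siglech window held 3 E-boxes, which begin at bases -235, -56 and -20 counted from the start, the Ccr9 window 2, at -118 and -85, and the Pacsin1 window 0. The motif reads the same on both strands as written, and 72.3% of 32841 promoters of this length held at least 1, so its presence is common. Of the 9 members with a RefSeq promoter, 8 held an E-box. Zbtb46 held 6, Runx2, Flt3 and Batf3 2 each, and Xcr1 and Clec9a 1 each. A relation between the number of E-boxes and the fold change was not tested. The motif TGTGGT, bound by RUNX factors such as that encoded by Runx2, was searched on both strands and stood in 3 of these 9 windows (Siglech, Pacsin1 and Runx2) and in 16.8% of all promoters. The Runx2 window held 3 RUNX matches, of which 2 overlapped an E-box. A match describes the letters of the window and is not a binding site.

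Siglech was the member that rose in DAF-TM libraries, and the other 9 did not pass the test. Counts were tested across 18767 genes with edgeR's quasi-likelihood test, two-sided, with Benjamini-Hochberg adjustment and a threshold of 0.05, and 0.410% of all genes passed (0.373% higher and 0.0373% lower in DAF-TM). Of the 10 members 8 had a positive log2 fold change, against 53.9% of all genes, and their median was 0.54, against 0.03 for all genes. In 5 of the 10 both DAF-TM libraries stood above every control, a pattern found in 11.3% of all genes tested. The median difference from the controls, on log2(CPM + 0.5), was 0.19 in DAF-TM library 1 and 0.63 in library 2. Summed over the 10 genes the level was 345 and 317 CPM in DAF-TM libraries and 309 to 358 in controls, a sum set mainly by Tcf4.

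**Figure D1:**
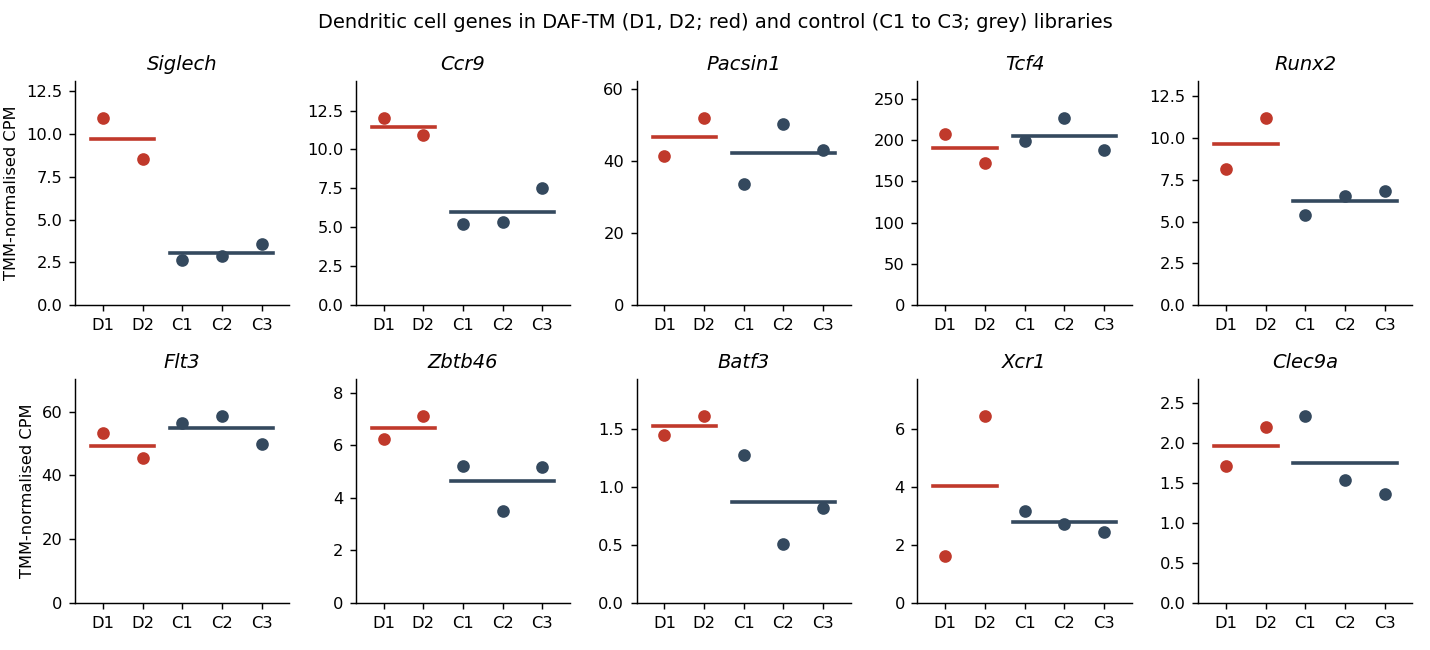
TMM-normalised CPM (vertical axis, from 0, a scale of its own in each panel) of each of the 10 genes in DAF-TM libraries D1 and D2 (red) and control libraries C1 to C3 (grey); horizontal lines are group means. Siglech, Ccr9, Runx2, Zbtb46 and Batf3 stand higher in both DAF-TM libraries than in any control, and Xcr1 is split between D1 (1.62) and D2 (6.43).

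Siglech encodes a protein of the sialic acid-binding lectin family that marks mouse pDC and signals through the adaptor DAP12. Some tissue macrophages carry this protein too. The gene lies on chromosome 7 (55768178 to 55778925, GRCm38). Its counts were 121 and 101 in DAF-TM libraries, against 25, 34 and 26 in controls, which is 10.9 and 8.54 CPM against 2.65, 2.89 and 3.55. The groups did not overlap, and the lower DAF-TM library stood well above the highest control. The mean was 9.73 ± 1.68 CPM in DAF-TM libraries (SD, n = 2) and 3.03 ± 0.465 in controls (SD, n = 3), 3.22-fold higher in DAF-TM (1.69 on the log2 scale, SE 0.35, and an edgeR adjusted p of 0.000932). The size of the difference changed little with the library left out, from 1.50 without DAF-TM library 1 to 1.86 without DAF-TM library 2. The gene no longer passed when DAF-TM library 1 (adjusted p = 0.246) or control library 1 (0.055) was left out, or with the Xist level as a covariate (log2 fold change 1.87, adjusted p = 0.126). Between DAF-TM library 2 and control library 1, the pair of libraries high in Xist with the least Y-linked RNA, the log2(CPM + 0.5) difference was 1.52, with no test.

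Tyrobp, which encodes DAP12, the adaptor of Siglec-H and of many receptors of natural killer and myeloid cells, rose alongside it. Tyrobp had 25.2 and 17.3 CPM in DAF-TM libraries and 9.96, 7.56 and 8.05 in controls, again with no overlap, and its log2 fold change was 1.31 (SE 0.24; edgeR adjusted p = 3.32e-05). It did not pass when DAF-TM library 1 was left out (1.01, adjusted p = 0.372) or with the Xist covariate (1.17, adjusted p = 0.142).

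Some markers of natural killer cells, macrophages and T cells, which the gate was meant to remove, also moved with Siglech. Neutrophil genes did not: their median log2 fold change was -1.56, with 7 of 9 negative, and none passed. Of all genes tested 0.373% rose. Of 12 natural killer cell genes 8 rose and none fell, and the list summed to 144 and 86.9 CPM in DAF-TM libraries and to 38.0 to 57.6 in controls. Its members included Gzma, a protease of cytotoxic granules (log2 fold change 1.98), and the receptor Klrk1 (1.69). With DESeq2 Gzma did not pass (adjusted p = 0.505), while Klrk1 did (adjusted p = 0.0168). Of 13 macrophage genes 4 rose and none fell, Vcam1 (2.06), Slc40a1 (1.82), C1qb (1.59) and Csf1r (1.12), though the summed level, 956 and 726 CPM against 766 to 859, overlapped and was mostly Apoe. Of 14 T cell genes Tcf7 (1.37) and Cd3d (1.52) rose and none fell, and the sum was 300 and 312 CPM in DAF-TM libraries and 299 to 327 in controls, most of it Lck, at 213 to 285 CPM over the 5 libraries. No gene of these 3 lists was at 0 in any library. Without DAF-TM library 1 none of the 14 calls in these 3 lists was made, and the part of such cells in the level of Siglech was not tested. In sorted bulk RNA, more cells of a type and more RNA per cell cannot be told apart.

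Ccr9 encodes the receptor for the chemokine CCL25, which draws pDC, T cells and antibody-secreting cells to the small intestine. It had 133 and 129 counts in DAF-TM libraries, against 49, 63 and 55 in controls, or 12.0 and 10.9 CPM against 5.19, 5.35 and 7.50. The groups did not overlap and the DAF-TM libraries were close to each other. The log2 fold change of 0.94 (SE 0.30, 95% interval 0.35 to 1.53) did not pass over all genes tested (edgeR adjusted p = 0.252; unadjusted p = 0.0018). Leaving out control library 1 gave 0.85 and leaving out control library 3 gave 1.13, the ends of the range over the 5 libraries. Ccl25 itself was low, at 5.50 and 7.10 CPM in DAF-TM libraries and 6.14 to 8.59 in controls, and did not pass (log2 fold change -0.20, adjusted p = 0.967).

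Pacsin1, Tcf4 and Flt3 were the members with a mean above 10 CPM in controls, and each overlapped between the groups. Pacsin1 encodes a membrane-bending protein of neurons that pDC also use. It had 41.5 and 51.8 CPM in DAF-TM libraries and 33.6, 50.2 and 43.0 in controls (log2 fold change 0.14, 95% interval -0.20 to 0.48). The interval ends below the log2 fold change of Siglech; the difference between the 2 genes was not tested.

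Tcf4, on chromosome 18, was the most abundant member, and B cells are known to use this E protein too. It stood at 208 and 172 CPM in DAF-TM libraries and at 199, 226 and 189 in controls. DAF-TM library 2 was the lowest of all and DAF-TM library 1 lay within the controls (log2 fold change -0.11, 95% interval -0.44 to 0.22, edgeR adjusted p = 0.965). Flt3, the receptor for FLT3 ligand, on which dendritic cell numbers depend, stood at 53.3 and 45.3 CPM in DAF-TM libraries and at 56.5, 58.6 and 49.8 in controls (log2 fold change -0.16, 95% interval -0.49 to 0.18). Flt3l, its ligand, was level, at 12.1 and 12.8 CPM in DAF-TM libraries and 11.5 to 13.1 in controls.

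Runx2, a RUNX factor best known for bone formation that pDC also need, had 90 and 132 counts in DAF-TM libraries and 51, 77 and 50 in controls. This is 8.12 and 11.2 CPM against 5.40, 6.54 and 6.82, with no overlap, and the log2 fold change of 0.63 (95% interval 0.02 to 1.23) did not pass (edgeR adjusted p = 0.854). The lowest value, 0.38, came without DAF-TM library 2. GENCODE places an antisense gene over 7.32% of the Runx2 exon bases, and the strand setting of the counting is not given, so a small part of its counts could be antisense RNA. Of its partners and relatives, Cbfb, the shared subunit, and Runx1 and Runx3 did not pass, with log2 values of -0.18, -0.07 and 0.38.

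**Figure D2:**
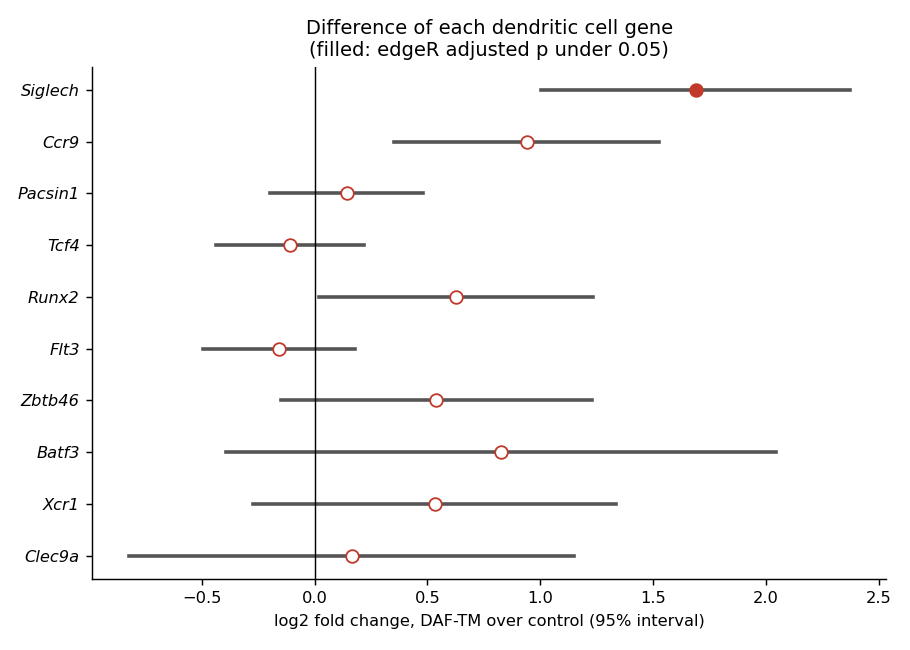
Log2 fold change (DAF-TM over control, horizontal axis) of each of the 10 genes with its 95% interval from the edgeR fit; the filled point passed the threshold. Siglech alone is filled, at 1.69, and the intervals of Ccr9 and Runx2 lie above 0 but did not pass after adjustment.

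The cDC genes were low, and none passed. Zbtb46 encodes a transcription factor that sets cDC apart from other myeloid cells. It had 6.22 and 7.10 CPM in DAF-TM libraries and 5.19, 3.48 and 5.18 in controls, with no overlap (log2 fold change 0.54, 95% interval -0.15 to 1.23). Batf3, a factor that cDC1 need to form, had 16 and 19 counts in DAF-TM libraries and 12, 6 and 6 in controls, with no overlap and a wide interval (log2 fold change 0.83, 95% interval -0.39 to 2.05). The log2 fold change of Siglech lies within the interval of Batf3.

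Xcr1 and Clec9a, the surface receptors of cDC1, did not pass, and their differences from Siglech were not tested. Xcr1, the receptor for the chemokine XCL1, had 18 and 76 counts in DAF-TM libraries and 30, 32 and 18 in controls. DAF-TM library 1 was thus the lowest of all, at 1.62 CPM, and DAF-TM library 2 the highest, at 6.43, with the controls between, at 2.46 to 3.18. The 3.96-fold gap between the DAF-TM libraries exceeded the 1.29-fold range of the controls. The log2 fold change of 0.53 (SE 0.41, edgeR adjusted p = 0.945) turned to -0.78 without DAF-TM library 2 and was 1.19 without DAF-TM library 1. Siglech was 1.28-fold higher in DAF-TM library 1 than in library 2, so the 2 genes were ordered in opposite ways between these libraries. Xcl1 was too low to be tested, at 1.17 and 0.677 CPM in DAF-TM libraries and 0.170 to 0.318 in controls.

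Clec9a encodes a receptor for the actin of dead cells. It had 19 and 26 counts in DAF-TM libraries and 22, 18 and 10 in controls, or 1.71 and 2.20 CPM against 2.33, 1.53 and 1.36, and the groups overlapped (log2 fold change 0.16, 95% interval -0.83 to 1.15). The interval stays below the log2 fold change of Siglech but overlaps the 95% interval of Siglech (1.01 to 2.37). The sign of Clec9a turned without DAF-TM library 2 (-0.03) and with the Xist covariate (-0.21).

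**Figure D3:**
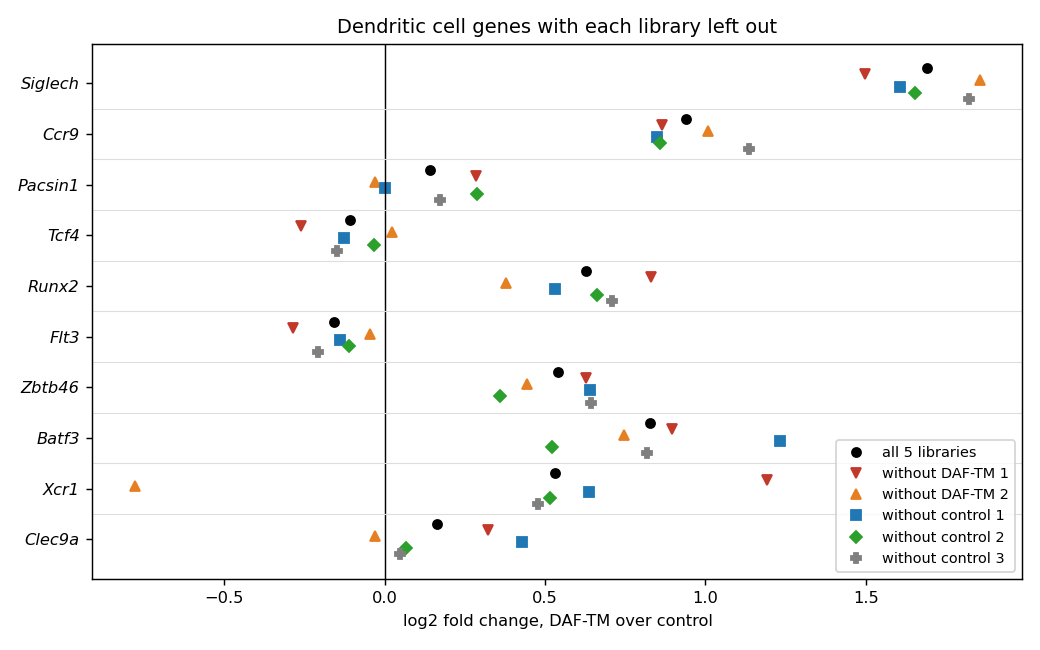
Log2 fold change (DAF-TM over control, horizontal axis) of each of the 10 genes with all 5 libraries and with each library left out in turn, 1 symbol per fit. Siglech stays between 1.50 and 1.86, while Xcr1 runs from -0.78 to 1.19 according to the DAF-TM library kept.

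Levels of different genes were compared per kilobase of exon (GENCODE M21 basic transcripts), as the mean over the 5 libraries. Tcf4 led at 14.9 CPM per kb, then Flt3 at 14.4 and Pacsin1 at 8.94. A gap followed, with Siglech at 1.74, Ccr9 at 1.47, Batf3 at 1.41, Runx2 at 1.07, Zbtb46 at 0.842, Xcr1 at 0.737 and Clec9a at 0.555 CPM per kb. Flt3 and Pacsin1 did not overlap over the libraries (lowest Flt3 12.4, highest Pacsin1 10.5 CPM per kb), nor did Pacsin1 and Siglech (lowest Pacsin1 6.82, highest Siglech 3.32), while every other pair of neighbours in the order overlapped. The place of Siglech differed with the group: it stood at 2.96 CPM per kb in DAF-TM libraries, above Ccr9 (2.05) and Batf3 (1.90), and at 0.922 in controls, below Ccr9 and Batf3 (1.08 each). For scale, the B cell gene Cd79a stood at 901 CPM per kb. The exon models behind the authors' counts are not known here, so this order rests on the GENCODE lengths.

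Of 20 further genes of the pDC programme, 19 were tested, 2 rose, none fell and 17 did not pass, while 0.373% of all genes rose. The median log2 fold change of the list was 0.42. Ly6d, a surface protein of pDC and B lineage cells, rose to 286 and 189 CPM in DAF-TM libraries, against 99.3, 142 and 101 in controls (log2 fold change 1.06, edgeR adjusted p = 4.07e-07; 0.72 and adjusted p = 0.288 without DAF-TM library 1). Tlr7, the sensor of single-stranded RNA in pDC and B cells, rose to 12.4 and 7.02 CPM, against 3.28, 2.80 and 4.37 (log2 fold change 1.496, adjusted p = 0.00588). Tlr7 did not pass when DAF-TM library 1 (1.02, adjusted p = 0.518), control library 1 (0.112) or control library 2 (0.086) was left out. The same held with upper-quartile factors (0.101), with the replicate number as a block (0.095) and with the Xist covariate (0.294). The factors shared by pDC and B cells were abundant and did not pass: Irf8 stood at 726 and 628 CPM in DAF-TM libraries and 654 to 782 in controls, and Spib at 669 and 521 against 610 to 709.

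Other cDC genes did not pass in any number. Of 20 listed, 17 were tested and 0 passed the edgeR threshold, with DESeq2 and limma-voom also at 0, and 3 had an unadjusted p under 0.05 (2 higher, 1 lower), against 5.74% of all genes. The median log2 fold change was 0.27. Cd83 and Wdfy4, the most abundant, are also B cell genes, at 806 and 828 CPM against 904 to 1229 for Cd83 and 232 and 185 against 199 to 241 for Wdfy4. Itgax, the integrin chain CD11c that cDC carry, though not they alone, was low. It stood at 8.12 and 4.65 CPM in DAF-TM libraries and 2.29 to 4.66 in controls (log2 fold change 0.74, edgeR adjusted p = 0.846). Ifi205 had 0 counts in control library 3, and every other gene of this list was counted in every library.

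Among ligands, partners and adaptors of the members, 1 of 19 tested genes rose, Tyrobp, against 0.373% of all genes. None fell, and the median was -0.02. The E protein relatives Tcf3 (-0.12) and Tcf12 (0.08) and the inhibitors Id2 (0.18) and Id3 (-0.22), which hold E proteins inactive, did not pass. Cbfa2t3, a corepressor that works with E2-2, was higher in both DAF-TM libraries than in any control but did not pass (0.45, edgeR adjusted p = 0.694). Batf, the relative of Batf3 that B cells use for class switching, had a log2 value of 0.04.

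**Figure D4:**
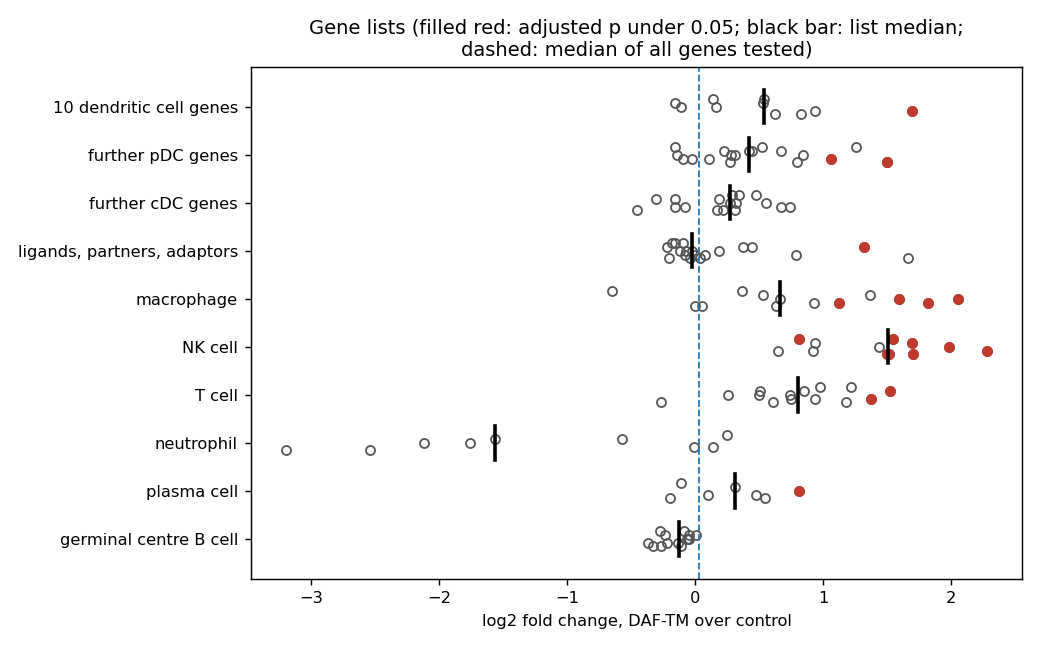
Log2 fold change (DAF-TM over control, horizontal axis) of the tested genes of each list, 1 circle per gene, filled red where the edgeR adjusted p was under 0.05; black bars are list medians and the dashed line is the median of all genes tested. The dendritic cell medians (0.54, 0.42 and 0.27) lie below those of natural killer (1.51), T cell (0.80) and macrophage genes (0.66). The lists differ in how many genes averaged at least 10 CPM in controls: 3, 11 and 7 against 1, 2 and 3, in the same order. The order of the medians thus does not rank the RNA of these cell types.

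The genes whose pattern over the 5 libraries was most like that of Siglech included Ccr7, Krt80, S100a4 and Prkcq, out of 17755 with a mean of at least 1 CPM. Likeness was the root mean square difference in centred log2(CPM + 0.5), 0.10 for Ccr7. Ccr7, a chemokine receptor that guides lymphocytes and mature dendritic cells to the T cell zone, had 30.8 and 23.7 CPM in DAF-TM libraries and 7.52, 7.47 and 8.73 in controls. With 5 libraries many genes can share such a pattern, and it is given as a description.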

How the data were processed

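RNA from sorted splenic germinal centre B cells was sequenced in 6 samples. Libraries were made by oligo-dT priming with a SMART-Seq v4 kit from 10 ng of RNA each, per the labels' protocols, and read as 100 nt single ends. The deposited values are unnormalised counts by gene symbol, in 23412 rows. The submitters' processing notes name bcl2fastq, HISAT2, featureCounts and the build mm10. Versions, annotation, strand setting and the handling of multi-mapping reads are not given in these sources. In 27 rows the symbol had become a date; they hold at most 0.266% of a library and are not named.

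The copied column was left out, so 5 libraries entered the fits. Genes were tested with edgeR 4.0.16 (R 4.3.3, limma 3.58.1) after filterByExpr and TMM scaling, with robust glmQLFit and glmQLFTest, on DAF-TM over control. Library values in the text are CPM after TMM scaling, and 3 residual degrees of freedom were left. Replicate numbers carry no litter or date in the labels, so no replicate block was used in it. The members and gene lists were chosen with earlier results of these data known, so no list was given a set test or an adjustment of its own. All 10 members are named. Of the companion lists the genes that passed, the most abundant and the binding partners could be named; Itgax, Ifi205, Bcl6, Cd79a and S100a8 were named after their values were seen. Of 140 list entries 139 matched a row, 2 through another symbol. Alternatives were other size factors and filters, DESeq2 1.42.0, limma-voom, a replicate block, an Xist covariate and leaving out each library. Amplification without molecular identifiers means that depth covers counting error only. Some genes are not reported here.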

Additional observations from a re-analysis of the deposited data

How the results depend on the processing

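Among the 10 members, Siglech was called under RLE and upper-quartile factors, both filters, DESeq2, limma-voom and the replicate block. The number of members called was 0 with the Xist covariate and 0 to 1 with each library left out. Signs turned without DAF-TM library 2 for 4 members. Over the fits that left out 1 library, Pacsin1 ran from -0.029 to 0.29, Tcf4 from -0.26 to 0.022, Xcr1 from -0.78 to 1.19 and Clec9a from -0.030 to 0.43. Clec9a also turned, to -0.21, with the Xist covariate, and the cause was not tested. Over all genes 77 were called, 39 with upper-quartile factors, 32 with DESeq2, 49 with limma-voom, 43 with the Xist covariate and 14 to 118 with each library left out (14 without DAF-TM library 1, 118 without DAF-TM library 2). Upper-quartile factors put the median log2 fold change of all genes at 0.10 and RLE at 0.00, and kept the sign of each member. The natural killer list had 8 calls, then 3 with upper-quartile factors, 2 with DESeq2, 5 with limma-voom and 5 with the Xist covariate, and 0 to 8 with each library left out. The T cell list had 2 calls, then 0 with upper-quartile factors, 1 with DESeq2 and 1 with the Xist covariate, and 0 to 1 with each library left out. The macrophage list had 4 calls, then 2 with upper-quartile factors and 2 with DESeq2, and 0 to 4 with each library left out. The further pDC list had 2 calls, 1 each with upper-quartile factors and the Xist covariate, and 0 to 3 with each library left out, and the further cDC list 0 to 1. The list of ligands, partners and adaptors had 1 call, 0 with the Xist covariate and 0 to 1 with each library left out. The plasma cell list had 1 call, then 0 with upper-quartile factors, DESeq2, limma-voom and the Xist covariate, and 0 to 2 with each library left out. The neutrophil list had 0 calls, then 1 with RLE factors, with no filter and with the Xist covariate, and 0 to 2 with each library left out. With the replicate number as a block 61 genes were called over all, Siglech among them (log2 fold change 1.79, adjusted p = 0.0398), and 2 natural killer, 0 T cell, 2 partner, 0 plasma cell and 4 neutrophil genes. The numbers are not known to pair the libraries. Deviations of DAF-TM library 1 and control library 1 correlated at -0.12, and those of library 2 of each group at -0.26. With only 2 DAF-TM libraries their deviations mirror each other, so these values are not independent and cannot decide whether the numbers pair the libraries. Without either DAF-TM library the lone one is assumed to vary like the controls. Batf3, with 6 to 19 counts, and Clec9a, with 10 to 26, set the depth limit.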

Other observations

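Genes of 2 further cell types were read in the same libraries. Among 7 genes of plasma cells, Prdm1, which drives the antibody-secreting fate, rose to 38.0 and 22.6 CPM in DAF-TM libraries, against 14.8, 18.5 and 18.4 in controls (log2 fold change 0.81, edgeR adjusted p = 0.0147; 0.38 and adjusted p = 0.595 without DAF-TM library 1, and lost also without control libraries 1 and 3). Igj, the joining chain of secreted antibody and the most abundant of the list, stood at 3236 and 2426 CPM against 2433 to 4317. No plasma cell gene fell, and 6 did not pass.

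Of 9 neutrophil granule genes tested, 0 passed in the edgeR fit and 1 had an unadjusted p under 0.05, with DESeq2 and limma-voom at 0, and the median log2 fold change was -1.56, with 7 of the 9 negative. Summed, they took 25.0 and 63.2 CPM in DAF-TM libraries and 85.5, 80.3 and 261 in control libraries 1 to 3, so the controls differed among themselves by more than the DAF-TM libraries did. S100a8 had 4.60 and 17.1 CPM in DAF-TM libraries and 19.7, 23.8 and 68.3 in controls. Of 14 germinal centre B cell genes 0 passed in the edgeR fit and 2, Bcl6 among them, had an unadjusted p under 0.05, both lower, with DESeq2 and limma-voom at 0. Their median log2 fold change was -0.12, and 13 of the 14 had negative values, as did 8657 of all 18767 genes tested. In 5 of the 14 both DAF-TM libraries stood below every control, a pattern found in 1692 of the 18767.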
